A study of Gallus gallus with 4 samples.

Results

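The translation initiation, elongation and release factors were examined in PR9692 cells, which come from a sarcoma of a CC.R1 strain chicken, in 2 stably transfected forms. Anti-HOPX cells carried a short hairpin RNA (shRNA) against HOPX, a small homeodomain protein, and control cells carried a control shRNA. The series' design text describes the anti-HOPX form as non-metastatic and the control form as metastatic. Each form was hybridised to 2 Affymetrix chicken arrays, 4 in all, and both forms were cultured in the same serum-supplemented medium at 40°C. Replicates are labelled biological, but nothing says whether they were separate cultures, or whether a form is 1 clone or a pool of cells. The p-values therefore measure only the spread between these arrays.

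The factors were chosen by name: every probe set whose platform gene symbol begins with EIF1 to EIF6, EEF1 or EEF2, or is ETF1, leaving out the EIF2AK and EIF2C names. This gave 92 probe sets of 51 genes, out of 38535 probe sets and 13009 named genes on the array. Of the 92, 67 probe sets of 47 genes passed the filter on low signal (a mean of at least 4 over the 4 arrays) and were tested, 22 lay under it, and 3 are array control probe sets for EEF1A1. A further probe set carries 2 gene symbols, 1 of which fits the rule. It was tested but is not counted as a member.

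Levels are given as log2 GCRMA units, and a difference is the anti-HOPX mean minus the control mean. The 2 anti-HOPX arrays correlated at 0.985 (Pearson's r over the 14851 tested probe sets) and the 2 control arrays at 0.992, against 0.954 to 0.959 across forms. HOPX itself lay under the filter and does not check the labels. The brighter of its probe sets had 3.21 and 3.54 on the anti-HOPX arrays against 3.23 and 3.72 on the control arrays. Of 14 mesenchymal and sarcoma markers on the array 12 reached a mean of 4, with a summed level of 141.2 to 145.2 in anti-HOPX cells and 138.8 to 140.7 in control cells. Within that list the collagen gene COL1A1 (1.73) and the transcription factor gene PRRX1 (0.64) were higher (limma adjusted p of 0.0020 and 0.038), and COL1A2, under the filter, differed by -2.17. None of 6 epithelial and none of 5 skeletal muscle markers reached a mean of 4. Of 6 endothelial markers 1 reached it (PECAM1), and of 7 blood cell markers 1 (SPI1). The summed level of the muscle markers, all near the floor, was 12.4 to 12.7 in anti-HOPX cells and 11.6 to 11.8 in control cells, and that of the blood cell markers was 25.8 to 26.1 in anti-HOPX cells and 25.4 to 25.5 in control cells. The part of these levels in the results was not tested.

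Protein synthesis starts when eIF2, bound to GTP and the initiator tRNA, joins eIF1, eIF1A, eIF3 and eIF5 on the small ribosomal subunit. The cap-binding complex eIF4F, made of eIF4E, the scaffold eIF4G and the helicase eIF4A, brings this assembly to the mRNA. It scans to the start codon, where eIF5 stimulates hydrolysis of the GTP on eIF2, and eIF5B then joins the large subunit. Elongation relies on eEF1A, which delivers aminoacyl-tRNA, and on eEF2, which moves the ribosome along, and eRF1 (ETF1) ends synthesis at stop codons. In many cells these factors are abundant housekeeping proteins whose activity is set largely by phosphorylation, which an expression array does not measure.

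Few translation factor probe sets passed the test for a difference between the forms, which with 2 arrays a form does not show that the others are equal. By limma's test at an adjusted p under 0.05, 0 of the 67 probe sets were higher and 1 was lower in anti-HOPX cells, a probe set of EIF5. This is 1.49%, beside 7.66% of all tested probe sets (3.12% higher and 4.54% lower). The EIF5 probe set was the 1 that both passed and differed by 2-fold or more, as did 5.48% of all tested probe sets. Whether or not they passed, 2 of the 67 differed by 2-fold or more, beside 1146 of all 14851. The other of the 2, a probe set of EIF5B at -1.15, had an array value under 4 and did not pass. At an unadjusted p under 0.05 there were 8, or 11.9%, beside 25.3% of all tested probe sets. The median difference of the 67 was 0.0090, beside 0.0093 over all tested probe sets, and the median absolute difference was 0.15 beside 0.27. The arrays of the forms did not overlap at 18 probe sets with higher and 15 with lower anti-HOPX values, together 49.3%, beside 27.9% higher, 28% lower and 55.9% in all among the tested probe sets. These shares describe the set and were not tested. A lack of overlap is thus common on these arrays, also where it is given for a single gene below.

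The intervals show how large a difference the arrays still allow. For 40 of the 67 probe sets (59.7%) the 95% interval of the difference lay within 1.5-fold either way, beside 24.1% of all tested probe sets, and for 60 (89.6%) it lay within 2-fold, beside 68.6%. The factors were bright. Of the 67, 31 had a mean of 12 or more, where the median absolute difference was 0.12 for the factors and 0.18 for all 996 probe sets of that range, of which 1.41% differed by 2-fold or more. In the range from 4 to 8 it was 0.16 for 13 factor probe sets and 0.30 for all probe sets, from 8 to 10 it was 0.25 for 9 and 0.27 for all, and from 10 to 12 it was 0.14 for 14 and 0.23 for all. The part of brightness in the narrow intervals was not tested.

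**Figure D1:**
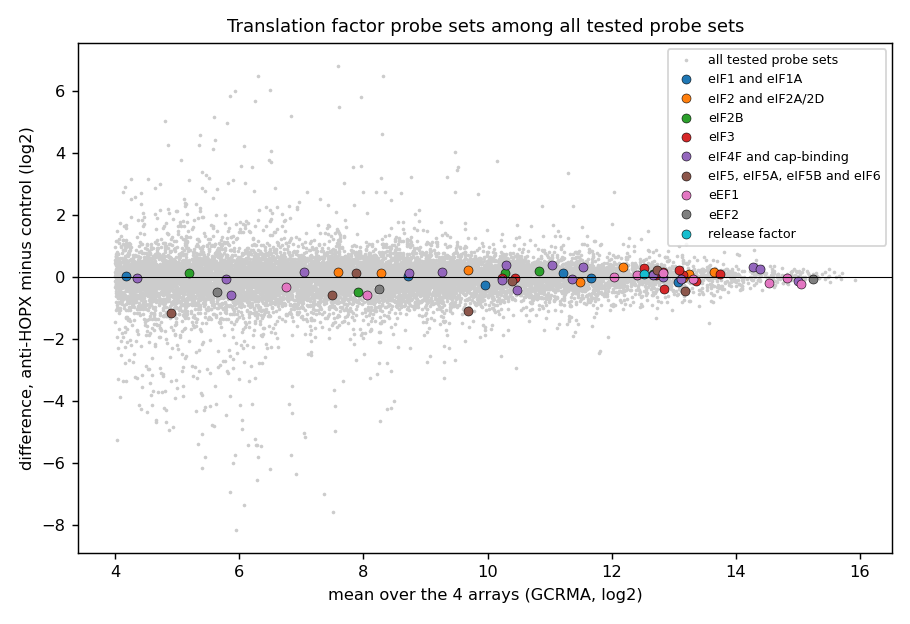
Difference between the forms (anti-HOPX minus control, log2) against the mean over the 4 arrays (log2) for each tested probe set, in grey for all 14851 and in colour by complex for the 67 of the translation factors. All factor points lie within 0.41 above 0 and 1.15 below it, and 31 of them lie at a mean of 12 or more.

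The factors eIF1 and eIF1A keep the scanning ribosome open and select the start codon. Of their 6 tested probe sets 0 passed with limma, also at an unadjusted p under 0.05. Over all tested probe sets these shares were 7.66% and 25.3%. EIF1, the start codon fidelity factor, read 12.86 and 13.11 on the anti-HOPX arrays and 13.07 and 13.23 on the control arrays. Its arrays overlapped between the forms, with a difference of -0.16 (SE 0.13, limma adjusted p = 0.48). EIF1B, its close relative, differed by -0.25 at its brighter probe set and by 0.06 at the other (limma adjusted p of 0.31 and 0.88). EIF1AX, which codes for eIF1A, differed by -0.013, 0.14 and 0.06 at its 3 tested probe sets. Its brightest probe set read 11.97 and 11.36 on the anti-HOPX arrays, which lay on either side of the control arrays at 11.70 and 11.65. None of these differences passed.

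The eIF2 group, which brings in the initiator tRNA, had 0 of 8 probe sets past the limma threshold, beside 7.66% of all tested probe sets. At an unadjusted p under 0.05 there were 0, beside 25.3%, and the median difference was 0.15. EIF2S1, the alpha subunit on which the stress kinases act, read 13.16 and 13.45 on the anti-HOPX arrays and 13.16 and 13.20 on the control arrays, a difference of 0.12 (95% interval -0.19 to 0.44). EIF2S2, the beta subunit, differed by -0.030 (95% interval -0.28 to 0.22) at its brighter probe set and by 0.13 at the other. EIF2S3, the GTP-binding gamma subunit, read 13.75 and 13.72 against 13.51 and 13.60 in control cells. Both its anti-HOPX arrays lay above both control arrays, also at its dimmer probe set, but the differences of 0.18 and 0.25 did not pass (limma adjusted p of 0.28 and 0.33). EIF2D, which can bring tRNA to the ribosome without eIF2, differed by 0.34 (limma adjusted p = 0.30), and EIF2A, another protein that binds initiator tRNA, by -0.15 (limma adjusted p = 0.48).

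eIF2B reloads eIF2 with GTP and is the step that phosphorylated eIF2 blocks. None of its 5 tested probe sets passed with limma, and 0 had an unadjusted p under 0.05. Over all tested probe sets these shares were 7.66% and 25.3%. EIF2B5, the catalytic epsilon subunit, was at 7.36 and 7.98 on the anti-HOPX arrays and 8.06 and 8.23 on the control arrays. Both anti-HOPX arrays were lower, and anti-HOPX replicate 1 lay 0.62 under replicate 2. The difference was -0.47 (SE 0.25, 95% interval -1.10 to 0.15, limma adjusted p = 0.30), and it was -0.17 without anti-HOPX replicate 1 and -0.78 without replicate 2 (adjusted p of 0.62 and 0.062). Of the other subunits, EIF2B2 differed by 0.09, EIF2B3 by 0.20 and EIF2B4 by 0.13, with limma adjusted p of 0.60, 0.46 and 0.72.

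eIF3, the largest initiation factor and the scaffold of the small-subunit assembly, was represented by 10 subunit genes with 1 tested probe set each. No subunit passed, beside 7.66% of all tested probe sets, and 1 had an unadjusted p under 0.05 (10%), beside 25.3%. The median difference was 0.07 with a range from -0.36 to 0.29. The 95% interval lay within 1.5-fold for 8 of the 10, beside 24.1% of all tested probe sets. It lay within 2-fold for all 10, beside 68.6%. All 10 were bright, with means of at least 10.2, and the part of brightness was not tested. EIF3L, a peripheral subunit, read 12.66 and 12.66 on the anti-HOPX arrays and 13.00 and 13.04 on the control arrays. The arrays of each form lay within 0.04 of each other and did not overlap between the forms, and the difference of -0.36 (SE 0.09, 95% interval -0.60 to -0.12) had an adjusted p of 0.083 with limma.

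Of the other eIF3 subunits, EIF3M was at 12.47 and 12.87 against 12.30 and 12.47 in control cells, a difference of 0.29 (limma adjusted p = 0.34). EIF3I, a subunit of WD repeats, differed by 0.23 and EIF3H, a subunit of the MPN domain family, by 0.18, each with both anti-HOPX arrays above both control arrays. The remaining 6, the large scaffold subunit EIF3A (-0.037), the RNA-binding EIF3B (0.08) and EIF3G (0.06), EIF3E (-0.12), EIF3F (0.11) and the loosely bound EIF3J (-0.032), had arrays that overlapped between the forms. The probe set with 2 gene symbols, EIF3D and FOXRED2, read 13.37 and 13.57 on the anti-HOPX arrays and 13.89 and 13.94 on the control arrays. Its difference of -0.45 did not pass (limma adjusted p = 0.066) and is not part of the eIF3 counts or range.

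**Figure D2:**
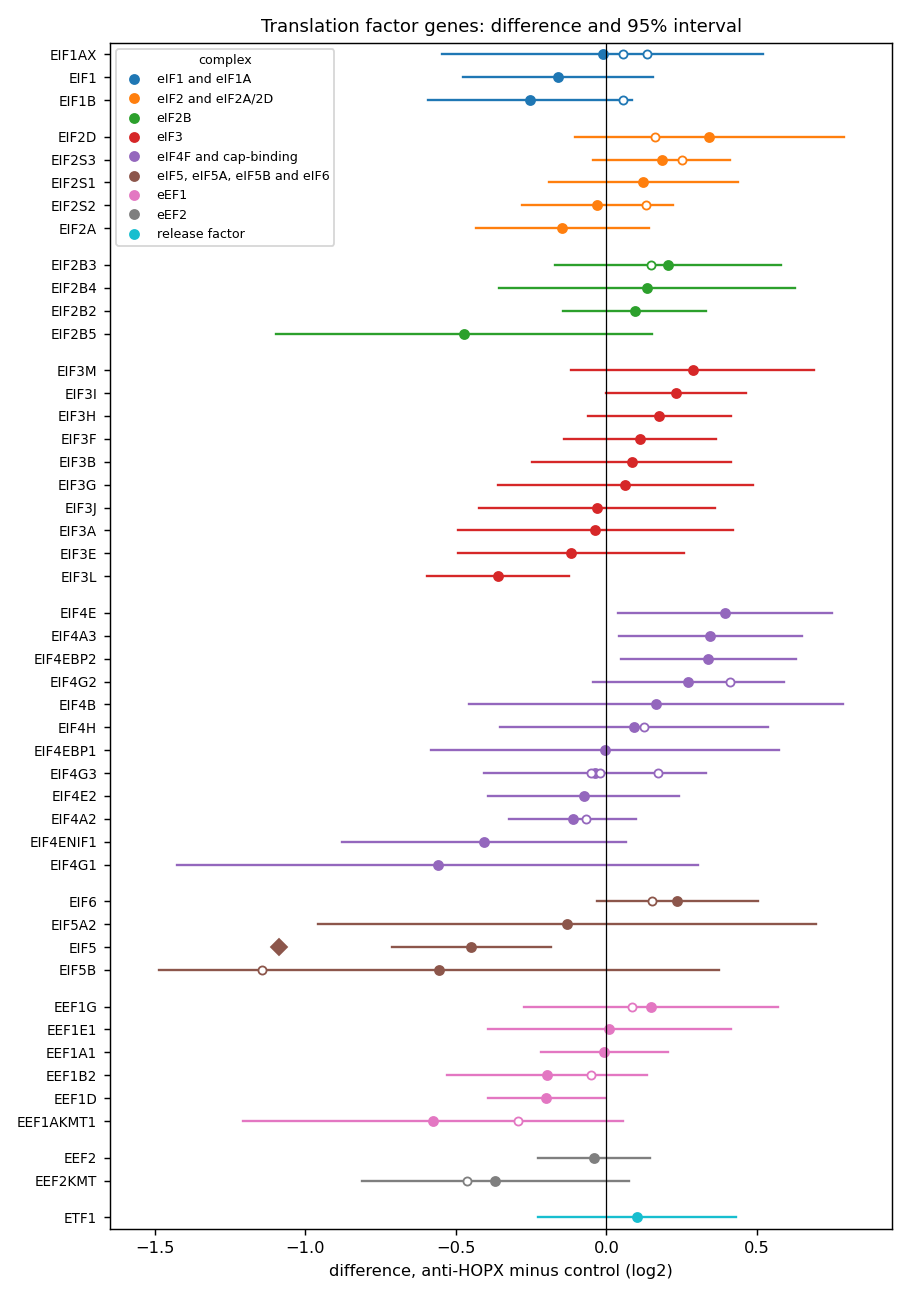
Difference between the forms (anti-HOPX minus control, log2) for the 47 tested genes, 1 row a gene, grouped and coloured by complex. Filled circles with bars are the brightest tested probe set of the gene and its 95% interval from limma, open circles are its other tested probe sets, and the diamond is the EIF5 probe set at -1.09, the 1 of 67 past the threshold. Most intervals span 0, and the intervals of EIF4G1, EIF5B and EIF5A2 are among the wide ones.

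The cap-binding group had 18 tested probe sets of 12 genes, of which 0 passed with limma and 4 had an unadjusted p under 0.05, or 22.2%, beside 25.3% of all tested probe sets. EIF4E, which binds the cap and is often the limiting part of eIF4F, read 10.39 and 10.62 on the anti-HOPX arrays and 10.14 and 10.07 on the control arrays. Both anti-HOPX arrays were higher, by 0.39 on average (SE 0.14, 95% interval 0.04 to 0.75, limma adjusted p = 0.16). EIF4EBP2, a repressor that holds eIF4E away from eIF4G, was at 11.78 and 11.64 against 11.36 and 11.38 in control cells. Here too the arrays did not overlap, and the difference was 0.34 (SE 0.12, limma adjusted p = 0.14). EIF4EBP1, the better known repressor of this family, read 13.16 and 12.50 on the anti-HOPX arrays, outside the control values of 12.96 and 12.71 on either side. Its difference was -0.0040 with a 95% interval from -0.58 to 0.57, which lies just within 1.5-fold either way.

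The scaffold genes of this group had differences on both sides of 0. EIF4G1, the main scaffold of eIF4F, read 5.26 and 5.91 on the anti-HOPX arrays and 6.50 and 5.78 on the control arrays. The forms overlapped, and the difference of -0.56 had a 95% interval from -1.43 to 0.30. EIF4G2, which lacks the eIF4E-binding region and serves cap-independent initiation, read 14.70 and 14.37 against 14.26 and 14.26 in control cells at its brightest probe set, a difference of 0.27 (limma adjusted p = 0.25). A second probe set of EIF4G2 read 11.33 and 11.16 against 10.72 and 10.95 in control cells, 0.41 higher (limma adjusted p = 0.14), and at both probe sets the forms did not overlap. Leaving out anti-HOPX replicate 2 brought an EIF4G2 probe set past the threshold, but there the form rests on a single array and the spread comes from the control arrays alone. The 4 tested probe sets of EIF4G3, another scaffold, differed by -0.05 to 0.17.

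Of the helicases and their helpers, EIF4A2, the RNA helicase of eIF4F measured here, read 14.91 and 14.99 on the anti-HOPX arrays and 15.02 and 15.12 on the control arrays. The difference of -0.11 had a 95% interval from -0.32 to 0.10. EIF4A3, a related helicase of the exon junction complex rather than of eIF4F, was at 14.29 and 14.60 against 14.08 and 14.12 in control cells. Its anti-HOPX arrays lay above the control arrays by 0.35 (SE 0.12, limma adjusted p = 0.16). It passed without anti-HOPX replicate 1, but there the form rests on the single value of 14.60 and the spread comes from the control arrays alone. The helicase cofactors EIF4B and EIF4H differed by 0.16 and 0.09. EIF4ENIF1, which carries eIF4E into the nucleus and to decay bodies, differed by -0.41 (limma adjusted p = 0.25), and EIF4E2, a cap-binding relative that represses translation, by -0.08. EIF4A1 is not analysed here.

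The factors that act at and after start codon recognition held the only call. EIF5, the GTPase-activating protein of eIF2, was measured by 2 tested probe sets, and both read lower in anti-HOPX cells. The dimmer one read 9.05 and 9.22 on the anti-HOPX arrays and 10.21 and 10.24 on the control arrays. The arrays of a form lay within 0.17 of each other and about 1 unit from those of the other form. This probe set thus read lower by 1.09 (SE 0.14, 95% interval -1.44 to -0.74, limma adjusted p = 0.016), or 2.13-fold. The brighter one read 12.87 and 13.06 against 13.42 and 13.41 in control cells, again without overlap. Its difference of -0.45 (SE 0.11, 95% interval -0.71 to -0.18), 1.36-fold lower, did not pass (limma adjusted p = 0.065). With each gene taken at its brightest tested probe set, EIF5 therefore did not pass. In that count 0 of 47 factor genes passed, beside 8.87% of all tested genes.

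The size of the EIF5 difference thus depended on the probe set. The brighter probe set exceeded the dimmer by 3.83 and 3.84 on the anti-HOPX arrays and by 3.21 and 3.17 on the control arrays, a gap that was 0.64 wider in anti-HOPX cells. The 4 gaps did not overlap between the forms, and their difference was not tested. Which transcripts each probe set detects is not given in the sources used here. The dimmer probe set no longer passed when control replicate 1 (-1.11) or control replicate 2 (-1.07) was left out. There the control form rests on 1 array, and the calls over all probe sets fell too. Nor did the dimmer probe set pass when dim probe sets were tested too (limma adjusted p = 0.080). In that setting 0.713% of all tested probe sets passed, beside 7.66% in the main fit. The brighter one passed without anti-HOPX replicate 2 (-0.54), where that form rests on 1 array. It also passed when only probe sets with a mean of at least 6 were tested (limma adjusted p = 0.049), beside 10% of all tested probe sets. The remaining EIF5 probe set lay near the floor, at 3.02 to 3.08 on anti-HOPX and 3.01 to 3.08 on control arrays.

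**Figure D3:**
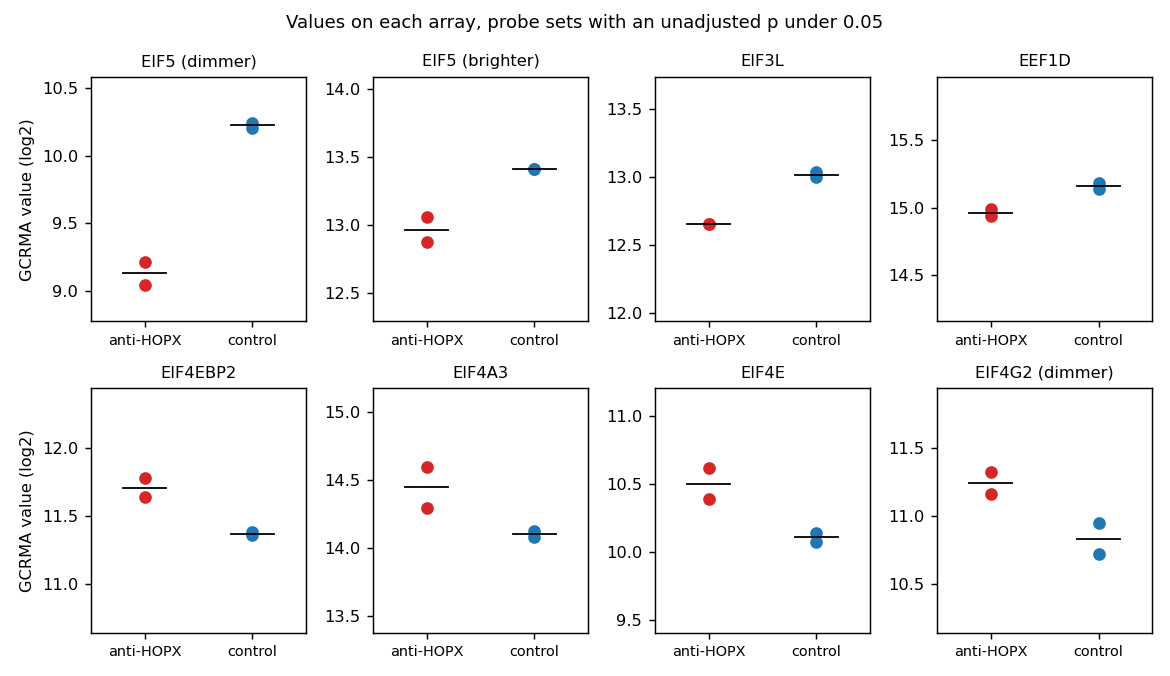
Values on each array (log2) for the 8 factor probe sets with an unadjusted p under 0.05, with anti-HOPX arrays on the left and control arrays on the right of each panel. Points are arrays and lines are group means, and all panels span the same range of 1.8. The dimmer EIF5 probe set shows the widest separation. The forms do not overlap in any of the 8 panels, beside 55.9% of all tested probe sets. The panels were picked by p-value on these same arrays, so their lack of overlap is no further support.

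EIF5B, the GTPase that joins the large subunit, had widely spread arrays that overlapped between the forms. Its brightest probe set read 7.46 and 6.96 on the anti-HOPX arrays and 7.28 and 8.26 on the control arrays. The other tested one read 5.37 and 3.27 against 4.97 and 5.96 in control cells. The differences of -0.56 and -1.15 had limma adjusted p of 0.41 and 0.39, and the second 95% interval ran from -2.95 to 0.66. The dimmer probe set passed without anti-HOPX replicate 1, where the form rests on the single value of 3.27 and the spread comes from the control arrays alone. EIF5A2, a relative of the hypusine-carrying factor eIF5A, read 9.86 and 10.79 on the anti-HOPX arrays, which enclosed the control values of 10.25 and 10.66 (difference -0.13, 95% interval -0.96 to 0.70). EIF6, which keeps the large subunit from joining early, was at 12.89 and 12.80 against 12.54 and 12.68 in control cells, 0.24 higher (limma adjusted p = 0.24). EIF5A is not analysed here.

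The elongation factors EEF1A1 and EEF2 stood close together in the forms. EEF1A1, which delivers aminoacyl-tRNA, read 14.81 and 14.82 on the anti-HOPX arrays and 14.77 and 14.88 on the control arrays. The difference was -0.0071 with a 95% interval from -0.22 to 0.20. EEF2, the translocase, read 15.20 and 15.24 against 15.27 and 15.25 in control cells, a difference of -0.041 with a 95% interval from -0.23 to 0.15. Both lie near the top of the scale.

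The array's own EEF1A1 control probe sets give the same gene along its transcript. The probe set at the 3' end read 15.15 and 15.15 on the anti-HOPX arrays and 15.17 and 15.19 on the control arrays. The middle one read 14.56 and 14.34 against 14.42 and 14.50, and the one at the 5' end 13.28 and 12.79 against 13.14 and 13.20 in control cells. The 5' value of anti-HOPX replicate 2 was the lowest of the 4 arrays, and the 3' to 5' gap was 1.87 and 2.35 on the anti-HOPX arrays and 2.03 and 1.99 on the control arrays. This gap is a measure of RNA integrity, and its part in the spread between the anti-HOPX arrays was not tested.

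The rest of the eEF1 group held the exchange factors of eEF1A, EEF1E1 and the methyltransferase EEF1AKMT1, which is described below. EEF1D, the delta subunit of the exchange complex, read 14.99 and 14.94 on the anti-HOPX arrays and 15.14 and 15.18 on the control arrays. Its arrays did not overlap, and the difference of -0.20 (SE 0.08, 95% interval -0.39 to -0.0052) did not pass after adjustment (limma adjusted p = 0.19). EEF1B2, the beta subunit, differed by -0.20 and -0.05 at its tested probe sets, and EEF1G, the gamma subunit, by 0.15 and 0.08. EEF1E1, which belongs to the multi-tRNA synthetase complex, differed by 0.0090. In all, 0 of 9 tested probe sets of the eEF1 group, 2 of them of EEF1AKMT1, passed with limma, beside 7.66% of all tested probe sets. At an unadjusted p under 0.05 there was 1 (11.1%), beside 25.3%.

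Enzymes that modify the elongation factors also carry names of the set, and 2 of them could be tested. EEF1AKMT1, a lysine methyltransferase of eEF1A, read 8.02 and 7.53 on the anti-HOPX arrays and 8.57 and 8.13 on the control arrays. EEF2KMT, which methylates eEF2, read 8.17 and 7.95 against 8.53 and 8.34 in control cells. In both genes both anti-HOPX arrays lay under both control arrays, also at the second probe set, beside 28% of all tested probe sets. The differences of -0.58 and -0.37 at the brighter probe sets did not pass (limma adjusted p of 0.23 and 0.27). The release factor ETF1 read 12.43 and 12.71 against 12.42 and 12.52 in control cells, with a difference of 0.10 and a 95% interval from -0.23 to 0.43.

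Probe sets of the same gene were also compared. Of 17 genes with more than 1 tested probe set, 13 had the same sign at all of them, and in 12 the probe sets differed by under 0.2 from each other. The shares over all genes were not counted, so this agreement is not a test of the values. Small spans also go with the small differences of the set, whose median absolute difference was 0.15. The widest spans were those of EIF5 (0.64), EIF5B (0.59) and EIF1B (0.31). At the factor probe sets the median gap between replicate arrays was 0.25 in anti-HOPX cells against 0.12 in control cells, beside 0.25 against 0.16 over all tested probe sets.

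For 4 genes no probe set reached the filter. EEF1A2, the isoform of eEF1A known from muscle and neurons in mammals, read 2.38 and 2.42 on the anti-HOPX arrays and 2.85 and 3.16 on the control arrays. EEF2K, the kinase that switches eEF2 off, read 2.46 and 2.34 against 2.35 and 2.38 in control cells. The eIF4E relatives EIF4E1B and EIF4E3 read at most 3.06 on any array. Values of this size lie near the floor of the scale and give no fold. The other 18 of the 22 dim probe sets belong to genes that a brighter probe set also measured.

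Genes that regulate or work with the factors were taken from 6 lists, and 88 entries of these lists could be tested. Across the lists 2 genes rose and 1 fell by limma's test at an adjusted p under 0.05, beside 8.87% of all 7691 tested genes (3.63% higher and 5.24% lower). At an unadjusted p under 0.05 there were 18 of the 88, beside 27.7% of all tested genes. The first list covers the control of mTORC1, the growth-sensing kinase complex that frees eIF4E from its repressors. Among its 13 genes 1 rose, 0 fell and the median difference was 0.20, beside 0.018 over all tested genes. The list pools subunits with inhibitors and other regulators, so this median is not a value of the complex. SESN3, a stress-induced inhibitor of mTORC1, read 7.75 and 6.38 on the anti-HOPX arrays and 4.45 and 3.97 on the control arrays. It rose by 2.85 on the log2 scale (95% interval 1.67 to 4.04, limma adjusted p = 0.028), and the difference was 2.17 without anti-HOPX replicate 1 and 3.54 without replicate 2. A second probe set, at 6.70 and 4.70 against 4.61 and 3.28 in control cells, did not pass (limma adjusted p = 0.22). SESN1 (-0.41) and MLST8 (0.35), an mTORC1 subunit, did not pass, and MTOR itself differed by -0.19.

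Among 17 genes of the eIF2 kinases and the integrated stress response 1 rose, 0 fell and the median difference was -0.026. VLDLR, a lipoprotein receptor placed in the list as a stress target, read 10.20 and 9.85 on the anti-HOPX arrays and 8.61 and 8.57 on the control arrays, and rose 2.70-fold (limma adjusted p = 0.013). CHAC1, a glutathione-degrading enzyme, differed by 0.69 and EIF2AK2, the interferon-induced kinase of eIF2, by 0.64 (limma adjusted p of 0.11 and 0.17). ATF4, the transcription factor translated when eIF2 is phosphorylated, differed by -0.23, and the other eIF2 kinases, EIF2AK1, EIF2AK3 and EIF2AK4, by 0.06, -0.28 and -0.026.

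In the 4 other lists 0 genes rose. Of 13 mitochondrial translation factors LRPPRC, which stabilises mitochondrial mRNAs, fell at least 2.05-fold with array values under 4 raised to 4, at 3.71 and 3.31 on the anti-HOPX arrays against 4.79 and 5.28 in control cells (limma adjusted p = 0.032). The release factor relative C12orf65 (-0.47) and the initiation factor MTIF3 (-0.44) did not pass, and the list median was -0.08. None of 18 genes listed as mRNA partners of initiation passed with limma. Of these, 5 had an unadjusted p under 0.05, or 27.8%, beside 27.7% of all tested genes. IGF2BP3 (0.73) and IGF2BP2 (0.60), a pair of RNA-binding proteins, were among the 5. So was DAP3, a protein of the mitochondrial ribosome, so this list was not limited to mRNA partners. None of 14 genes of release, recycling and rescue passed, and 2 had an unadjusted p under 0.05 (14.3%), while LTN1 (-0.46) and TCF25 (0.38) lay farthest from 0. None of 13 genes listed for the modification of elongation factors passed (EEF2KMT, above, is 1 of them), with 2 at an unadjusted p under 0.05 (15.4%). The list was not limited to enzymes that modify these factors and also holds EEFSEC and SECISBP2. The genes of diphthamide synthesis on eEF2 lay on both sides of 0. DPH6 read 8.65 and 8.45 on the anti-HOPX arrays against 7.79 and 7.31 in control cells (limma adjusted p = 0.057), while DPH2 differed by 0.50, DPH1 by 0.41, DPH5 by -0.08 and DPH7 by -0.25. With a mean of at least 6 as the filter, SESN3 and LRPPRC lay under it and were not tested. Over the alternatives in which each gene was tested, the differences lay between 2.17 and 3.54 for SESN3, 1.26 and 1.60 for VLDLR, and -1.77 and -1.28 for LRPPRC. Their tests, however, no longer passed when control replicate 1 or control replicate 2 was left out, where the calls over all probe sets fell too. Nor did they pass when dim probe sets were tested too (limma adjusted p of 0.13, 0.079 and 0.11), where 0.713% of all tested probe sets passed.

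**Figure D4:**
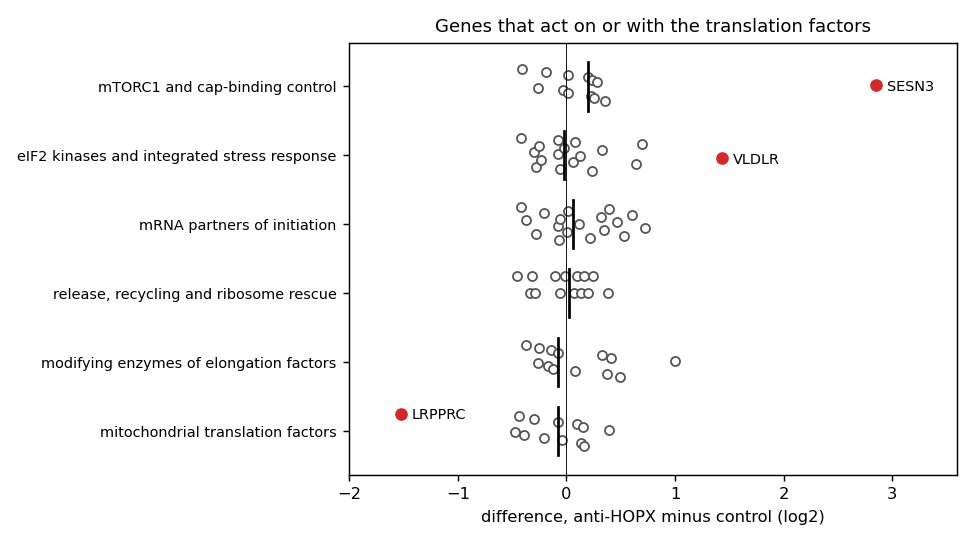
Differences (anti-HOPX minus control, log2) of the tested genes of 6 lists of regulators and partners of the translation factors, 1 point a gene. Black bars are list medians, and filled red points are the 3 genes past the threshold, with SESN3 and VLDLR higher and LRPPRC lower in anti-HOPX cells.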

How the data were processed

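Total RNA was labelled and hybridised to Affymetrix chicken arrays, per the labels' protocols. The authors deposited log2 values, 1 per probe set and array. The submitters' processing notes name GCRMA and Partek 6.4 without roles, so the background model, which pulls dim probe sets to a floor, and the normalisation between arrays are theirs. No further step is stated there. Gene symbols are the platform's, updated through RefSeq identifiers (98.8% found), which changed no member's symbol. The 96 control probe sets were left out, and limma 3.58.1 under R 4.3.3 was fitted to probe sets with a mean of at least 4 (lmFit, eBayes with an intensity trend, no replicate block, two-sided, Benjamini-Hochberg over all 14851). The fit had 2 residual degrees of freedom and a prior of 3.54. Errors are limma's standard errors or 95% intervals, and precision is limited by there being 4 arrays. The procedure was tested on simulated data.

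Members, complexes and lists were chosen with earlier results of these data known. A gene stands for its brightest tested probe set. Named genes are EEF1A1, EEF2, EIF4E, EIF4EBP1, EIF4A1, EIF4A2, EIF4G1, EIF2S1, EIF5A, EIF6 and ETF1, those past the threshold, the 12 largest differences that did not pass, the largest and smallest of each complex, and from each list up to 4 that passed and 2 that did not. Other members are named to account for the set. MTOR, ATF4 and the eIF2 kinases were named after their values were seen. Alternatives were other filters, variance models, scalings, thresholds and units of counting, the replicate block, and leaving out each array.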

Additional observations from a re-analysis of the deposited data

How the results depend on the processing

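The member count of 1 was 0 without the filter on low values (limma, 12 at an unadjusted p under 0.05), at an adjusted p under 0.01 (8), without the probe sets marked _x_at, _s_at or _a_at (3), and with 1 probe set a gene (7). In the same order, 0.713%, 1.66%, 9.26% and 10.1% of all that were tested passed. The settings by suffix and by gene left out the called EIF5 probe set before the fit, so they do not test it again. The member count was 2 with a mean of at least 6, beside 10% of all tested probe sets. It ran from 0 to 3 when each array was left out, and was 0 without control replicate 1 or 2 (3 and 1 at an unadjusted p under 0.05). The count over all probe sets, 1138, was 274 without the filter, 247 at an adjusted p under 0.01, and 142 to 1734 when each array was left out. With the replicate number as a block it was 2698, or 18.2% of all tested probe sets. There 4 members passed with limma, both tested EIF5 probe sets (adjusted p of 0.0015 and, for the brighter, 0.020), EIF3L and EIF4A3. The labels tie no numbers together, and deviations of same-numbered arrays correlated at 0.25 over the tested probe sets and -0.15 over the members, so the block is a hint at most. The median difference of the eIF4F group, 0.044 in the main fit, was -0.00098 without the filter and 0.12 with a mean of at least 6. That of the eIF5 to eIF6 group, -0.45 in the main fit, was -0.13 without the filter. That of eIF1 and eIF1A, 0.021 in the main fit, was -0.16 with 1 probe set a gene or without the named suffixes. The eEF2 group was tested by a probe set of EEF2 (-0.041) and 2 of its methyltransferase EEF2KMT (-0.37 and -0.46). Its median, -0.37 in the main fit and so a value of EEF2KMT, was -0.21 without the filter, with a mean of at least 6 or with 1 probe set a gene. It was -0.041 without the suffixes. Here fewer or dimmer probe sets enter. Leaving out each array gave medians of -0.063 to 0.061 for eIF1 and eIF1A, 0.11 to 0.17 for eIF2 and -0.058 to 0.16 for eIF3. They were 0.048 to 0.18 for eIF2B, 0.047 to 0.11 for eIF4F and -0.45 to -0.066 for eIF5 to eIF6. With each array left out they were -0.17 to 0.038 for the eEF1 group with EEF1AKMT1 and -0.48 to -0.24 for the eEF2 group with EEF2KMT. There the lone array of a form was assumed to vary like the other form's arrays. Centring arrays on their medians turned the signs of EIF1AX (0.016), EEF1A1 (0.022) and EIF4EBP1 (0.025). Leaving out an array turned the signs of EIF1AX (-0.32 to 0.30), EIF4EBP1 (-0.33 to 0.33), EIF5A2 (-0.60 to 0.34), EIF3J (-0.19 to 0.13), EEF1A1 (-0.065 to 0.051), EIF2S2 (-0.089 to 0.028), EIF2S1 (-0.022 to 0.27) and ETF1 (-0.038 to 0.24). The other 19 named member probe sets kept their sign in every alternative run, but sizes moved when an array was left out, as for EIF5B (-1.05 to -0.07), EIF4G1 (-0.92 to -0.20), EIF3M (0.09 to 0.49), EIF2D (0.13 to 0.56) and EIF4ENIF1 (-0.62 to -0.19). Without 1 of its 2 arrays a form's mean is the value of the other, so these sizes follow the gaps between replicate arrays. The cause of the gaps was not tested.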
